A study of Mus musculus with 24 samples.

Results

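DNA methylation was examined at the ends of 38 Hox genes, 10 in the Hoxa cluster, 10 in Hoxb, 9 in Hoxc and 9 in Hoxd, out of 21529 genes with a measured end. A gene end was the stretch of 1000 bp on either side of the annotated start or end of a gene, whichever held more CpGs, and its methylation level was the percentage of calls that were methylated. The window lay at the gene start for 32 members and at the 3' end for Hoxa6, Hoxb2, Hoxb6, Hoxb8, Hoxc6 and Hoxd4. In mm10 coordinates the members span chr6:52162417-52260880 (Hoxa, minus strand), chr11:96194316-96368254 (Hoxb, plus strand), chr15:102921131-103036856 (Hoxc, plus strand) and chr2:74668225-74765142 (Hoxd, plus strand). All 38 passed the minimum of 5 CpGs and 10 calls in every library, with 96 to 1784 calls per member and library. The windows of Hoxa5 and Hoxa6, and those of Hoxb7 and Hoxb8, overlap almost fully, so each of these pairs enters the counts of members with mostly the same CpGs.

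The study followed mouse induced pluripotent stem (iPS) cells grown over feeder cells, with and without a miR-203 knock-in whose microRNA is switched on by doxycycline. Libraries came from wild-type cells and from the knock-in clones N5 and N9, each at t=0 before doxycycline, at day 10 (5 days after a 5-day treatment), at day 25 (20 days after it) and as embryoid bodies. Embryoid bodies, clumps of cells that leave pluripotency together, were made here by hanging drops. The knock-in locus and the promoter that drives it are not given in the sources used here, and wild-type cells of day 10 and day 25 are also labelled as taken after doxycycline. The wild type is taken as 1 library a stage, and the knock-in has 2, 1 from each clone. The design text puts embryoid bodies at 7 days of differentiation (day 32), whereas the wild-type label gives 10 days, so genotype and differentiation time cannot be told apart in embryoid bodies. Each clone is a single line, and nothing in the labels says that libraries of a clone came from separate cultures. P-values therefore measure only the spread between these libraries.

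Hox genes encode homeodomain transcription factors that give cells along the body axis their regional identity. They lie in 4 clusters, and their order along a cluster matches the order in which they are activated and the body level at which they act, with low-numbered (anterior) paralogs early and high-numbered (posterior) paralogs late. In pluripotent cells the clusters are silent but covered by Polycomb marks, and their CpG islands are known to be largely free of DNA methylation. Genes of the same number in different clusters are paralogs.

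Mean coverage was 4.88 to 9.11 calls per autosomal CpG. The autosomal level was 60.6 to 61.4% in the 3 wild-type iPS libraries and 69.6% in wild-type embryoid bodies. In N9 it was 64.9% before doxycycline, 60.7% on day 10, 47.7% on day 25 and 71.1% in embryoid bodies. The N5 values were 64.8% before doxycycline, 48.4% on day 25 and 71.8% in embryoid bodies. Reads at the start of chromosome Y were at 0.0370 and 0.0386 of the chromosome 5 coverage in N5 and N9 at t=0, at 0.0122 and 0.0104 at day 25, and at 0.000218 to 0.00178 in the other 8 libraries. The t=0 and day 25 clone libraries thus stood apart on chromosome Y, and the part this has in the differences below was not tested. All N5 libraries except that of day 10 came from a separate flow cell, which the remaining 9 did not use.

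The promoters of 4 members are given as examples, from a CpG-rich promoter free of methylation to promoters with fewer CpGs that were partly methylated. They do not cover the full range. The 3 CpGs of the listed Hoxd4 promoter were at 25.0 to 85.7%, with 13 calls in the library with the fewest. The 250 bases before the listed transcription start are given 5' to 3', from RefSeq promoters on GRCm38.p6, with each CpG in capitals. Hoxd13, which patterns digits, lies at chr2:74667975-74668224 (plus strand), and Hoxd12, also a gene of the distal limb, at chr2:74674763-74675012 (plus strand). Hoxa5, needed for the lung and the neck and upper chest skeleton, lies at chr6:52204588-52204837 (minus strand), and Hoxa7, a gene of the trunk, at chr6:52218574-52218823 (minus strand).
Hoxd13: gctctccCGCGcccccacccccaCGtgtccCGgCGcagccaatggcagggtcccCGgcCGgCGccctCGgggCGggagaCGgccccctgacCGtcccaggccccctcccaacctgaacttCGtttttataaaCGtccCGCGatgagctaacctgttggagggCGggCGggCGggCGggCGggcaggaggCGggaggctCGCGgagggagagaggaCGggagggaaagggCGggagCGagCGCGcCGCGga
Hoxd12: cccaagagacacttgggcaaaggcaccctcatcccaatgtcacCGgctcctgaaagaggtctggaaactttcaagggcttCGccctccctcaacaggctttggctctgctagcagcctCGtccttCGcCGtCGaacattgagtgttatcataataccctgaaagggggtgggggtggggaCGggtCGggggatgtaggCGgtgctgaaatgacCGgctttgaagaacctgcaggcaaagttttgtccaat
Hoxa5: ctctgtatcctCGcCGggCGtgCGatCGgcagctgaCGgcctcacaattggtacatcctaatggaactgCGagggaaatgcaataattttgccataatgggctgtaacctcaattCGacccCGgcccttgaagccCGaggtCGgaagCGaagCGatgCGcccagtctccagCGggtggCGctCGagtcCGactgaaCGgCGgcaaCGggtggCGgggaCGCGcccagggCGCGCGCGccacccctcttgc
Hoxa7: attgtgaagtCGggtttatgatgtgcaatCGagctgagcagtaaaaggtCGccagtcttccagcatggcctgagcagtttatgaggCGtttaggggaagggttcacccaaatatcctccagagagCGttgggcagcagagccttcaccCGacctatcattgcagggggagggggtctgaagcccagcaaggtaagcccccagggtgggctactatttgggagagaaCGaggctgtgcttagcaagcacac

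The Hoxd13 stretch holds 31 CpGs, a number reached by 5.19% of the 32851 mouse promoters cut in the same way. None of its 459 calls over the 12 libraries was methylated. The library with the fewest calls (15) allows a level of up to 20.0%, and all libraries together up to 0.654%, for counting error only. The Hoxd12 stretch, 10 CpGs in the next gene of the cluster, was at 8.41, 13.0, 6.52 and 18.0% in wild-type cells of t=0, of day 10 and of day 25 and in their embryoid bodies. It was at 4.35, 10.3, 2.36 and 29.2% in N5 and at 4.92, 9.64, 5.26 and 37.3% in N9. Both clone embryoid body libraries were above the other 10 libraries. Single CpGs of the stretch had unequal levels. With N5 and N9 calls summed, the CpGs 207, 170, 132, 125 and 119 bases before the start were methylated in 7 of 10, 7 of 11, 8 of 15, 10 of 18 and 9 of 17 calls in embryoid bodies. The CpG at 122 bases had 2 of 18, and those at 70, 65, 52 and 37 bases had 0 of 15, 3 of 15, 3 of 17 and 3 of 14. At day 25 these last 4 had 0 of 20, 0 of 20, 0 of 21 and 0 of 20. The CpGs at 207, 170, 132, 125 and 119 bases had 0 of 11, 3 of 12, 0 of 20, 1 of 14 and 2 of 24 there. The CpG at 170 bases was also methylated in 6 of 9 wild-type calls at t=0 and 5 of 10 clone calls at day 10. Calls per CpG were few and the differences between CpGs were not tested. The 28 CpGs before Hoxa5 were at 0 to 3.91% in every library. The 7 CpGs before Hoxa7 were at 19.6 to 47.3%, with the wild-type embryoid bodies (47.1%) and N5 at t=0 (47.3%) highest.

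**Figure D1:**
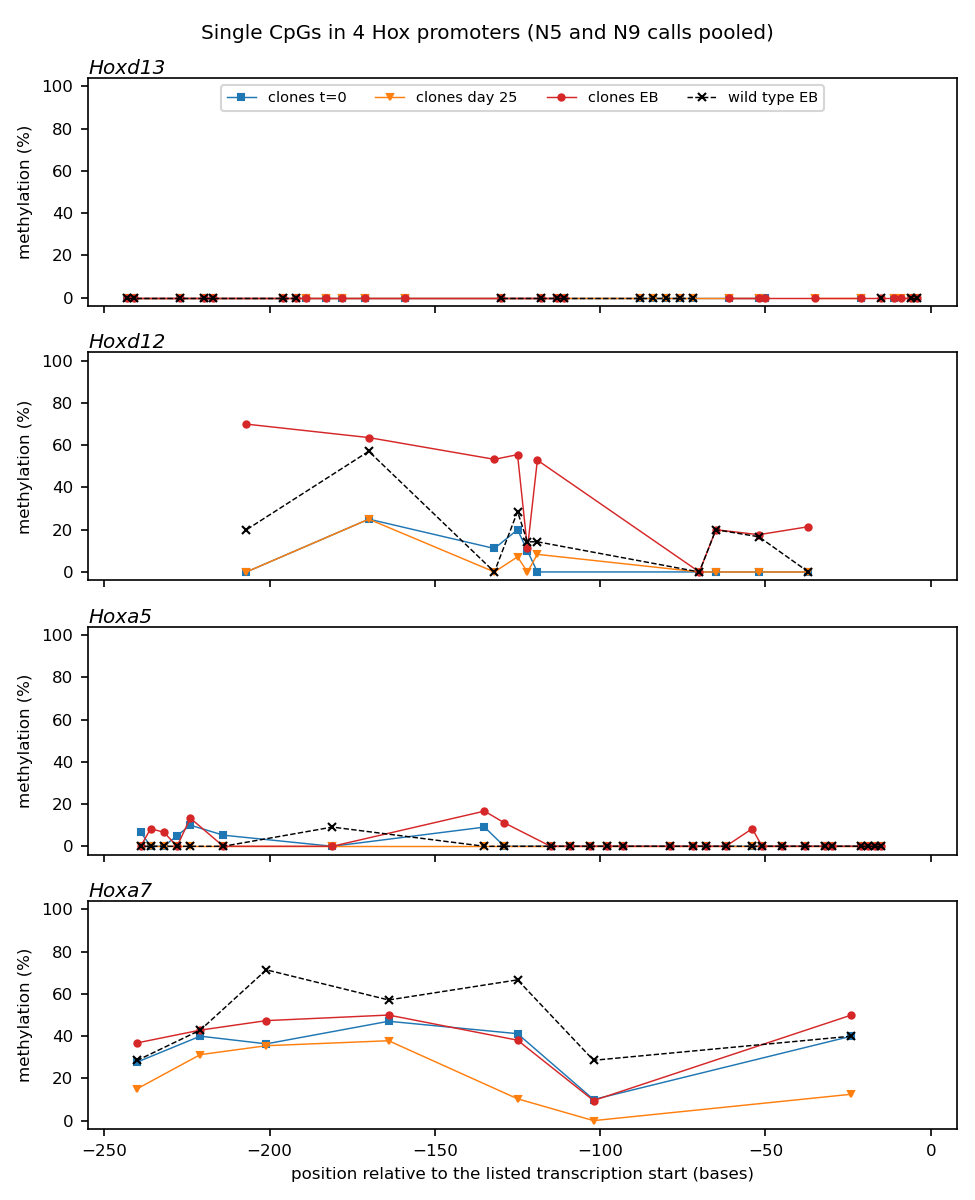
Methylation level (%) of single CpGs in the 250 bases before the listed start of Hoxd13, Hoxd12, Hoxa5 and Hoxa7, against distance from that start in bases. Coloured lines are N5 and N9 calls summed at t=0, day 25 and in embryoid bodies (EB), the dashed line is the wild-type EB library, and CpGs without calls are left out. Hoxd13 was at 0 throughout, whereas 5 Hoxd12 CpGs 119 to 207 bases before the start exceeded 50% in clone EBs.

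Most of these Hox ends, the end of each gene with more CpGs, were little methylated. At t=0 in the wild type 29 of 38 were under 10%, with a median of 5.68% against 9.22% over all 20326 ends tested and 3.08% over ends with at least 60 CpGs. Most of the other ends of the same genes, with fewer CpGs, were above 10% in that library, from 2.39% at Hoxc6 to 58.5% at Hoxd1. The members held 19 to 194 CpGs (median 88.5, against 65 over all ends), and 32 held at least 60. Across members the level in the wild type at t=0 fell with the number of CpGs (Spearman rho -0.64, n = 38 members measured in the same library, a description only), and rho with paralog number was -0.30. In all 12 libraries 18 members stayed under 10%. The 4 with the lowest maxima, all of paralog groups 9 to 13, were Hoxc13, a gene of hair and nails (0.294 to 2.38%), Hoxd13 (0.282 to 2.46%), Hoxb9, a gene of the rib cage (0.560 to 2.51%), and Hoxa11, a gene of the limb and uterus (0.869 to 2.63%). The other 14 were Hoxc11, Hoxc5, Hoxd3, Hoxb2, Hoxa13, Hoxb8, Hoxb7, Hoxc12, Hoxd9, Hoxd11, Hoxc9, Hoxb4, Hoxd8 and Hoxc8, with maxima of 3.09 to 9.33%.

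**Figure D2:**
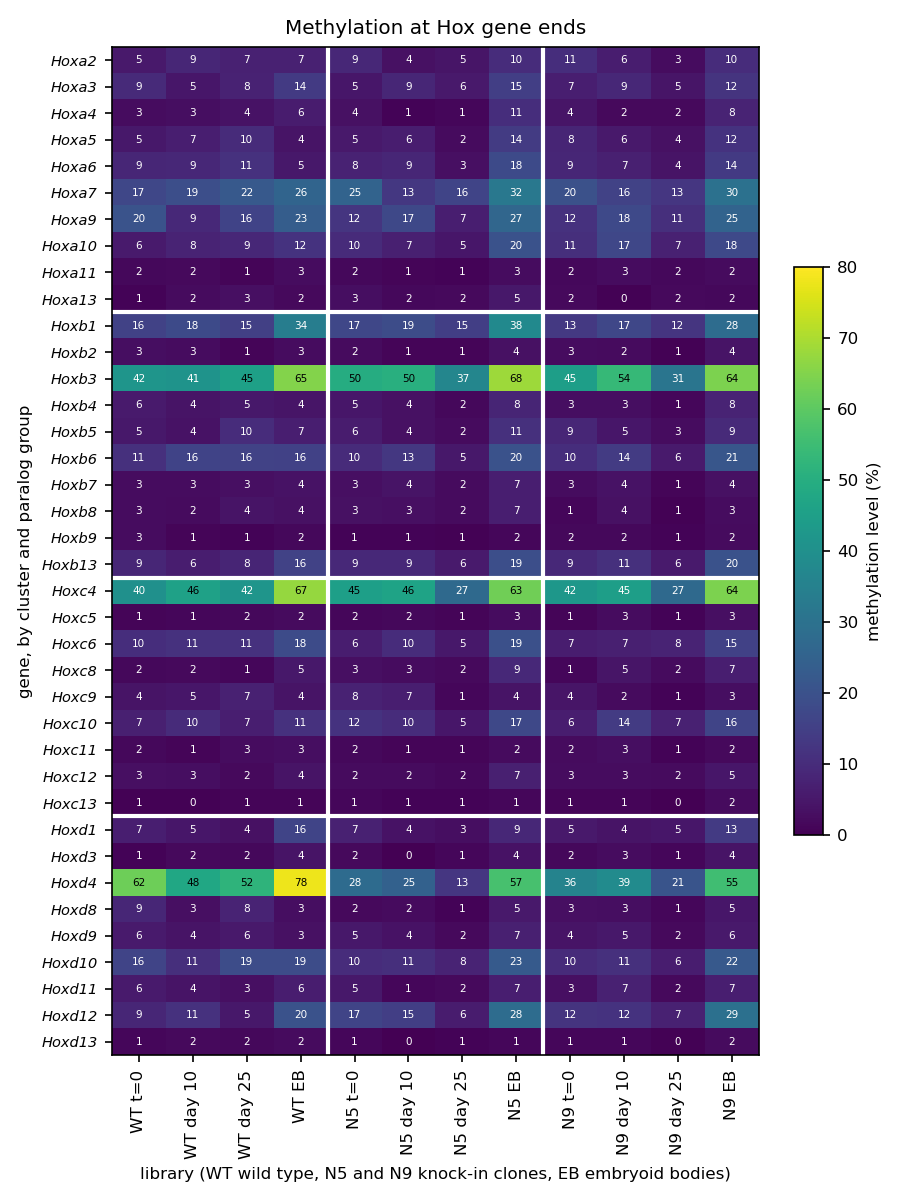
Methylation level (%, colour and printed number) at the 38 Hox gene ends (vertical axis, by cluster and paralog number) in 12 libraries (horizontal axis, wild type then clones N5 and N9, EB for embryoid bodies). Hoxb3, Hoxc4 and Hoxd4 stand out at 12.6 to 78.0%, and most other members are under 10%.

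The highest members in each cluster in the wild type at t=0 were Hoxa9, Hoxb3, Hoxc4 and Hoxd4, and the lowest were Hoxa13, Hoxb9, Hoxc13 and Hoxd3. Over the 12 libraries Hoxa13 was at 0.406 to 5.20% and Hoxd3 at 0.209 to 4.35%. Hoxd4, a hindbrain and neck gene under retinoic acid control, was at 62.2, 47.6, 52.0 and 78.0% in wild-type cells of t=0, of day 10 and of day 25 and in their embryoid bodies. Hoxd4 was at 28.0, 24.9, 12.6 and 56.7% in N5 and at 35.9, 38.7, 20.8 and 55.3% in N9. The wild type was above both clones at every stage. Its window (chr2:74728160-74730160) is at the 3' end and has 36 CpGs.

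Hoxc4 was at 40.0, 45.7, 41.7 and 67.3% in the wild type, at 45.2, 46.3, 27.5 and 62.6% in N5, and at 42.3, 44.7, 27.3 and 64.2% in N9, in the same order of stages, which is kept from here on. Hoxb3, another hindbrain gene, was at 41.7, 41.2, 45.4 and 65.1% in the wild type, at 49.5, 50.3, 36.6 and 68.2% in N5, and at 44.8, 53.5, 31.0 and 64.3% in N9. In both genes the embryoid bodies of all 3 lines were above every iPS library. Their windows have 19 and 31 CpGs and lie at far upstream annotated starts. The 8 CpGs before the start of Hoxc4 that RefSeq promoters list (chr15:103034145-103034394) were at 2.53 to 19.8%.

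At day 10 none of the 38 ends was called different from t=0 in the clones, while 0.197% of all ends passed. The test was edgeR's quasi-likelihood test with Benjamini-Hochberg adjustment over all ends, as for every adjusted p below. At an unadjusted p under 0.05 there were 3, and limma on logit levels called 0.

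By day 25, 14 members had fallen in the clones and none had risen, against 40.2% of all ends lower and 26.5% of ends with at least 60 CpGs. All of the 14 except Hoxc4 (19 CpGs) and Hoxd4 (36) held at least 60 CpGs, as did 32 of the 38 members. The members' median change was -2.36 points, against -3.90 points over all ends. Of those 14, 4 were in Hoxa, 4 in Hoxb, 2 in Hoxc and 4 in Hoxd. They were 6 of 11 members of paralog groups 1 to 4, 5 of 11 of groups 5 to 8, and 3 of 16 of groups 9 to 13. In 33 members both clones were lower at day 25 than at t=0, while in the wild type 17 were lower. The median over all ends fell too, from 10.1 to 5.82% in N5 and from 10.1 to 5.92% in N9. In the wild type that median was 9.22% at t=0 and 9.31% at day 25. Among those 14 the largest falls were at Hoxc4 (-16.3 ± 1.90 points, SD, n = 2 clones, adjusted p = 0.0156) and Hoxd4 (-15.3 ± 0.250, adjusted p = 0.012). Hoxd12 followed among the called members (-7.49 ± 4.10, adjusted p = 0.017). Larger mean changes that did not pass were those of Hoxb3 (-13.3 points, adjusted p = 0.0528) and Hoxa7 (-8.14, adjusted p = 0.0765). Hoxb3 passed with windows of 2000 bp on either side (adjusted p = 0.00776).

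Lower down the scale, Hoxa2, which sets the identity of hindbrain and branchial arch, was at 5.43, 8.70, 7.29 and 7.22% in the wild type. Hoxa2 was at 8.91, 3.73, 4.51 and 10.2% in N5 and at 10.5, 6.31, 2.67 and 10.1% in N9, a fall of 6.14 ± 2.46 points to day 25 (adjusted p = 0.00742). The clones at t=0 were above the wild type there and at day 25 below it. Hoxc9, a gene of the chest level that sets motor neuron identity, was at 4.29, 4.80, 7.24 and 4.10% in the wild type, at 7.52, 6.68, 1.44 and 4.21% in N5 and at 4.46, 2.34, 0.647 and 3.07% in N9. Day 25 was the lowest stage in both clones and the highest in the wild type, and the clones' change was -4.94 ± 1.61 points (adjusted p = 0.00177).

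The other members that had fallen by day 25 were Hoxb5 (-4.82 points), Hoxb6 (-4.76), Hoxa6 (-4.50), Hoxa5 (-3.85), Hoxd9 (-2.59), Hoxb4 (-2.40), Hoxa4 (-2.32), Hoxb2 (-1.67) and Hoxd8 (-1.64). Their adjusted p were 0.00551 to 0.0408. With windows of 500 bp on either side the called members included Hoxd1 and Hoxa10, which were not among the 14. The count of 14 rests on each of the 4 libraries compared. It was 7 without the t=0 library of N5, 3 without that of N9, 4 without N5 at day 25 and 6 without N9 at day 25, and 6 with windows of 500 bp on either side.

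On embryoid body formation 36 of the 38 ends rose from day 25 in the clones, against 74.6% of all ends and 63.0% of those with at least 60 CpGs. Of the 32 members with at least 60 CpGs, 30 rose. The median change was 6.89 points, against 7.22 over all ends, and 5.27 against 2.54 among CpG-rich ends. The members that did not pass were Hoxa11 (1.22 ± 0.603 points, adjusted p = 0.0526) and Hoxa13 (1.43 ± 2.39, adjusted p = 0.181), both posterior genes of limb and genital tract. Both passed with windows of 2000 bp on either side (adjusted p = 0.0046 and 1.14e-05). The median rise was 9.13 points in Hoxa, 7.09 in Hoxb, 4.02 in Hoxc and 4.69 in Hoxd. The clusters' ranges overlapped. Over members of all 4 clusters the median was 7.66 points in paralog groups 1 to 4, 7.69 in groups 5 to 8 and 4.13 in groups 9 to 13. The rise was smaller in members with more CpGs (rho -0.70 across the 38 members, which share libraries; rho with paralog number -0.32).

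The 3 largest rises were at Hoxd4 (39.4 ± 6.80 points, adjusted p = 1.96e-06), Hoxc4 (36.0 ± 1.22, adjusted p = 4.09e-06) and Hoxb3 (32.4 ± 1.20, adjusted p = 1.54e-05). Hoxd12 was at 8.70, 11.4, 5.11 and 20.0% in the wild type, at 16.6, 15.0, 6.18 and 28.2% in N5, and at 12.0, 11.7, 7.39 and 29.4% in N9 (rise of 22.0 ± 0.00227 points, adjusted p = 4.52e-06). Embryoid bodies were highest in all 3 lines. With 86 CpGs it rose more than any other member with at least 60.

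Hoxb1, which defines a hindbrain segment and responds early to retinoic acid, was at 15.8, 18.0, 15.0 and 33.8% in the wild type, at 17.1, 18.5, 14.9 and 38.01% in N5, and at 13.2, 17.0, 12.3 and 28.2% in N9. The 3 embryoid body libraries were all above the 9 iPS libraries and overlapped between genotypes. The clones' rise was 19.5 ± 5.13 points (adjusted p = 0.000294). Hoxa9, a gene of blood progenitors, was at 20.3, 9.25, 16.1 and 23.5% in the wild type, at 12.4, 17.3, 6.87 and 26.5% in N5, and at 11.5, 17.6, 10.8 and 25.4% in N9 (17.1 ± 3.57 points, adjusted p = 6.02e-05). The wild type had its lowest value at day 10, and its t=0 and embryoid body libraries lay close together. Hoxa7 was at 17.1, 19.2, 22.5 and 25.8% in the wild type, at 25.4, 12.9, 16.4 and 32.0% in N5 and at 19.9, 15.6, 12.6 and 29.9% in N9 (16.5 ± 1.28 points, adjusted p = 0.00114).

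Hoxd10, a gene of the lumbar spinal cord, was at 16.5, 10.6, 18.6 and 18.6% in the wild type, at 10.2, 10.7, 7.83 and 22.6% in N5 and at 9.88, 11.0, 6.31 and 22.3% in N9 (15.4 ± 0.867 points, adjusted p = 4.63e-05). Hoxb6 was at 11.1, 16.2, 15.6 and 15.6% in the wild type, at 9.96, 13.0, 5.02 and 20.2% in N5 and at 10.5, 13.9, 5.90 and 21.4% in N9 (15.3 ± 0.234 points, adjusted p = 1.41e-05). In both genes the wild type was as high at day 25 as in embryoid bodies. Hoxb13, a gene of the tail end and prostate, was at 8.52, 6.44, 8.27 and 15.8% in the wild type, at 9.30, 9.26, 5.66 and 19.2% in N5 and at 9.10, 11.2, 5.84 and 20.2% in N9 (14.0 ± 0.601 points, adjusted p = 3.4e-05). All 3 lines were highest in embryoid bodies there. The remaining 26 members that rose did so by 1.27 to 13.0 points.

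Against t=0, 12 members were higher in clone embryoid bodies and none lower, against 8.97% of all ends and 5.8% of CpG-rich ends (6 of 32 members). They were Hoxd4 (24.1 ± 6.55 points, adjusted p = 0.0167), Hoxc4 (19.7 ± 3.12, adjusted p = 0.0285), Hoxb3 (19.1 ± 0.599, adjusted p = 0.0279), Hoxb1 (18.0 ± 4.22, adjusted p = 0.0124), Hoxd12 (14.5 ± 4.10, adjusted p = 0.0238), Hoxa9 (14.0), Hoxd10 (12.4), Hoxc6 (11.0), Hoxb6 (10.5), Hoxb13 (10.5), Hoxa3 (7.60) and Hoxc8 (5.89). Hoxc6, a chest-level gene with its window at the 3' end, was at 10.4, 11.3, 11.4 and 18.1% in the wild type, at 6.26, 10.1, 5.28 and 19.4% in N5 and at 6.52, 6.95, 8.10 and 15.3% in N9. Embryoid bodies were above all iPS libraries in each of the lines. In the wild type 30 members were higher in embryoid bodies than at t=0, which with 1 library a stage was not tested on its own. The wild-type median over all ends was 9.22% at t=0 and 12.25% in embryoid bodies. The count of 12 was 2 without the t=0 library of N5, 1 without that of N9, 0 without the N5 embryoid bodies and 3 without those of N9. With limma on logit levels it was 0, with 20 members at an unadjusted p under 0.05.

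**Figure D3:**
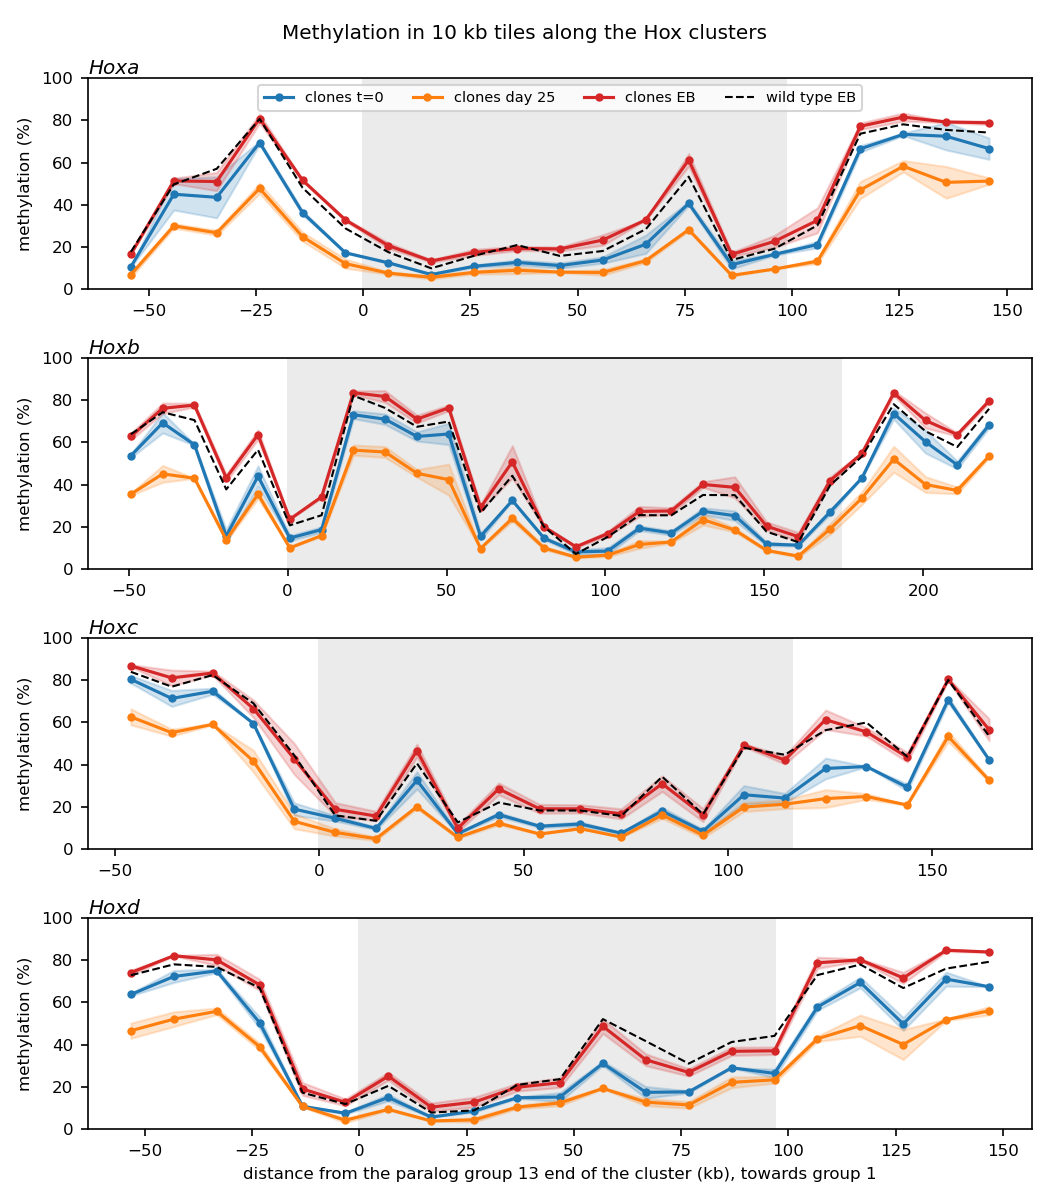
Methylation level (%) in 10 kb tiles along each Hox cluster and its flanks, against distance in kb from the group 13 end. Lines are the mean of N5 and N9 at t=0, day 25 and in embryoid bodies (EB) with the SD (n = 2) as a band, the dashed line is the wild-type EB library, and the grey area is the cluster. Levels were mostly lower inside the clusters than in the flanks, except for the stretch 20.7 to 50.7 kb from Hoxb13, and were mostly lowest at day 25 and highest in EBs.

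The clusters as a whole were low-methylated stretches. In the wild type at t=0 the member windows of Hoxa were at 6.81%, the rest of that cluster at 16.0% and 100000 bp on either side at 40.2%. The same 3 levels were 8.28, 23.8 and 47.1% for Hoxb, 4.67, 14.9 and 50.5% for Hoxc, and 7.82, 20.1 and 42.2% for Hoxd. In the clones the Hoxa windows changed by -2.99 ± 0.264 points from t=0 to day 25, the rest of the cluster by -5.25 ± 0.438 and the flanks by -13.0 ± 0.152. From day 25 to embryoid bodies these 3 rose by 8.00 ± 0.716, 13.6 ± 0.115 and 25.4 ± 0.688 points. The other clusters moved in the same order of size. Within Hoxb the 4 tiles between Hoxb13 and Hoxb9, a stretch without Hox genes, were at 50.9 to 66.4% in the wild type at t=0. The tile with the lowest level in that cluster, at 90.7 kb, was at 6.57%.

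At t=0 none of the 38 ends was called different between clones and wild type, while 0.536% of all ends were. At an unadjusted p under 0.05 there were 3, Hoxd4 (-30.3 points, adjusted p = 0.0663), Hoxd8 (-5.84, adjusted p = 0.204) and Hoxa9 (-8.38, adjusted p = 0.533), and limma called 0. Hoxd4 was called with the clone line as a block (adjusted p = 0.0228), without either clone at day 10 (adjusted p = 0.0391 each) and with the wild-type columns kept as separate libraries (adjusted p = 0.0326). At day 10 there were again none (0.0148% of all ends), while limma called 0 and 2 had an unadjusted p under 0.05.

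At day 25, 8 members were lower in the clones and none higher, against 10.2% of all ends lower and 7.63% of CpG-rich ends (6 of 32 members). Hoxd4 differed most (-35.4 points; 52.0% in the wild type, 95% Wilson interval 45.5 to 58.5, for counting error only, and 16.7 ± 5.81 in the clones, adjusted p = 0.000814). The gap in that 3' window was -30.3 points before doxycycline. The window's change from t=0 to day 25 did not differ between genotypes by the test of the difference (adjusted p = 0.494). At the start of Hoxd4 the gap was 5.12 points before doxycycline and -20.8 at day 25. Hoxd10 (-11.5 points, adjusted p = 0.0264) and Hoxb6 (-10.2, adjusted p = 0.0183) followed among the called members. Hoxc4 (-14.3 points, adjusted p = 0.154) and Hoxb3 (-11.6, adjusted p = 0.247) did not pass. Hoxd8 was at 8.52, 3.33, 7.91 and 3.07% in the wild type, at 2.06, 2.46, 0.816 and 5.50% in N5 and at 3.30, 3.08, 1.27 and 4.90% in N9. The clones were lower at day 25 (-6.87 points, adjusted p = 0.00135), and both were below the wild type already at t=0.

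Hoxa5 was at 5.13, 6.87, 9.94 and 4.12% in the wild type, at 5.42, 6.35, 2.40 and 14.0% in N5 and at 8.38, 5.55, 3.70 and 11.8% in N9. The clones were lower than the wild type at day 25 (-6.89 points, adjusted p = 0.0166) and above it in embryoid bodies. Hoxa6 was at 8.60, 8.81, 11.3 and 5.15% in the wild type, at 7.79, 8.54, 3.37 and 18.0% in N5 and at 8.71, 6.91, 4.13 and 13.6% in N9 (-7.49 points at day 25, adjusted p = 0.0213). The windows of Hoxa5 (chr6:52203587-52205587, its start) and Hoxa6 (chr6:52203858-52205858, its 3' end) overlap almost fully, so they report mostly the same CpGs. Hoxb5, which acts in the gut's nerve precursors, was at 5.21, 3.88, 10.1 and 6.85% in the wild type, at 6.03, 3.73, 2.48 and 11.1% in N5 and at 8.74, 4.97, 2.65 and 9.45% in N9 (-7.49 points at day 25, adjusted p = 0.00817). Its window touches that of Hoxb6. Hoxc9 made up the 8 (-6.20 points, adjusted p = 0.00582).

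Of these 8 members, 3 were in Hoxd, 2 in Hoxa, 2 in Hoxb and 1 in Hoxc, and 5 belonged to paralog groups 5 to 8. The count was 4 without N5 at day 25, 3 with the clone line and flow cell as blocks, and 1 with limma. Hoxd8 passed under each of the 17 alternatives run, among them both blocks, with adjusted p of 0.00105 to 0.0497.

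**Figure D4:**
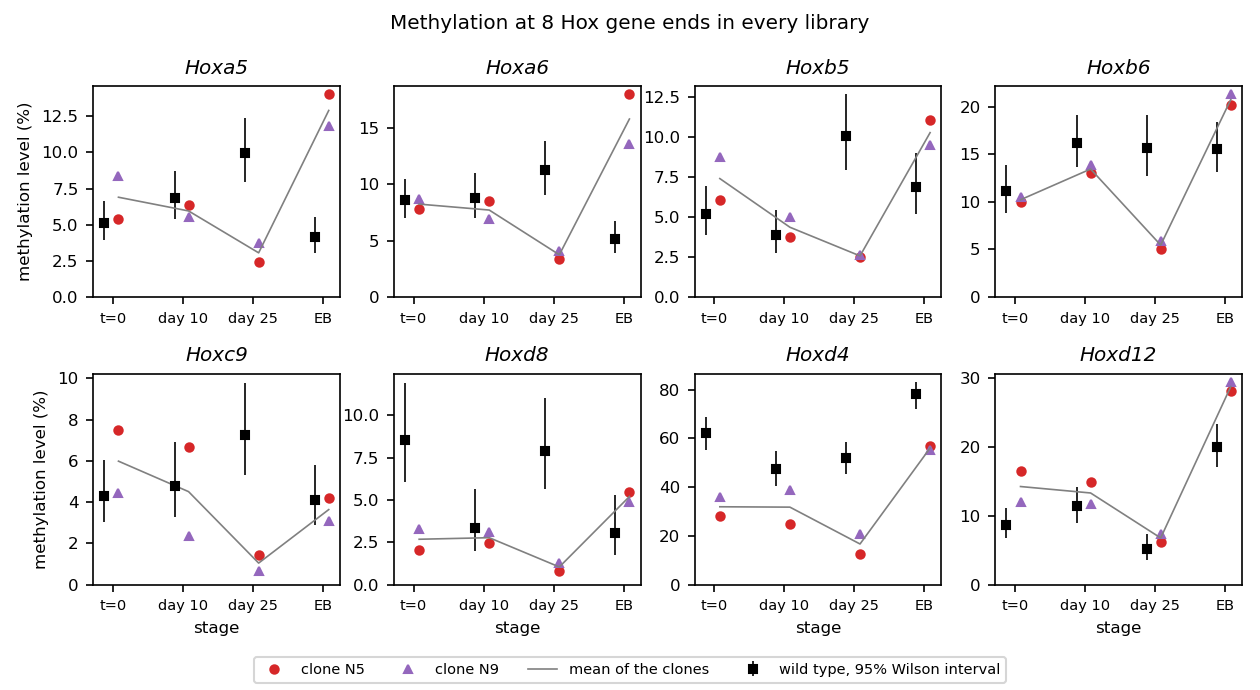
Methylation level (%) at 8 Hox gene ends by stage. Black squares are the wild type with its 95% Wilson interval, red circles N5, purple triangles N9, the line is the mean of the clones (n = 2), and each panel has its own vertical scale. The panels other than Hoxd12 show 7 members called lower in the clones than in the wild type at day 25. That both clones lie below the wild type there thus follows from the choice of panels. In Hoxd12 they do not.

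A difference between clones and wild type in the change from t=0 to day 25 was called at 2 members, against 2.11% of all ends. Both changed more downward in the clones, Hoxb5 with a difference of -9.67 points (adjusted p = 0.0463) and Hoxc9 with -7.90 points (adjusted p = 0.0421). Wild-type levels rose over this interval at both genes and those of N5 and N9 fell. The count was 0 without the t=0 library of N5, 1 without that of N9, 0 without either clone at day 25, 1 without either clone's embryoid bodies, and 0 with limma.

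The change from day 25 to embryoid bodies differed at 7 members, all higher in the clones, against 6.07% of all ends. They were Hoxa6 (18.2 points, adjusted p = 0.00255), Hoxa5 (15.7, adjusted p = 0.00255), Hoxb6 (15.4, adjusted p = 0.0343), Hoxb5 (10.9, adjusted p = 0.0189), Hoxd8 (9.00, adjusted p = 0.00653), Hoxb4 (7.28, adjusted p = 0.0372) and Hoxd9 (6.36, adjusted p = 0.0439). Hoxb4, known for expanding blood stem cells, was at 5.79, 4.33, 5.24 and 4.46% in the wild type, at 4.92, 3.68, 1.75 and 8.24% in N5 and at 2.99, 3.01, 1.37 and 7.87% in N9. Hoxd9 was at 5.92, 4.28, 5.56 and 3.44% in the wild type, at 5.25, 4.00, 2.01 and 7.10% in N5 and at 4.07, 5.17, 2.13 and 5.52% in N9. In these windows wild-type embryoid bodies were below the day 25 cells at all 7, from -6.10 points at Hoxa6 to -0.0757 at Hoxb6, and both clones were higher. At the other end of the same genes the wild type rose, by 6.60 points at Hoxa6 to 30.8 at Hoxd8, except at Hoxd9 (-2.88). The test of this difference in change shares the day 25 libraries with the preceding comparisons. The count was 3 without N5 and 4 without N9 at day 25, 3 and 4 without their embryoid bodies, and 0 with limma.

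**Figure D5:**
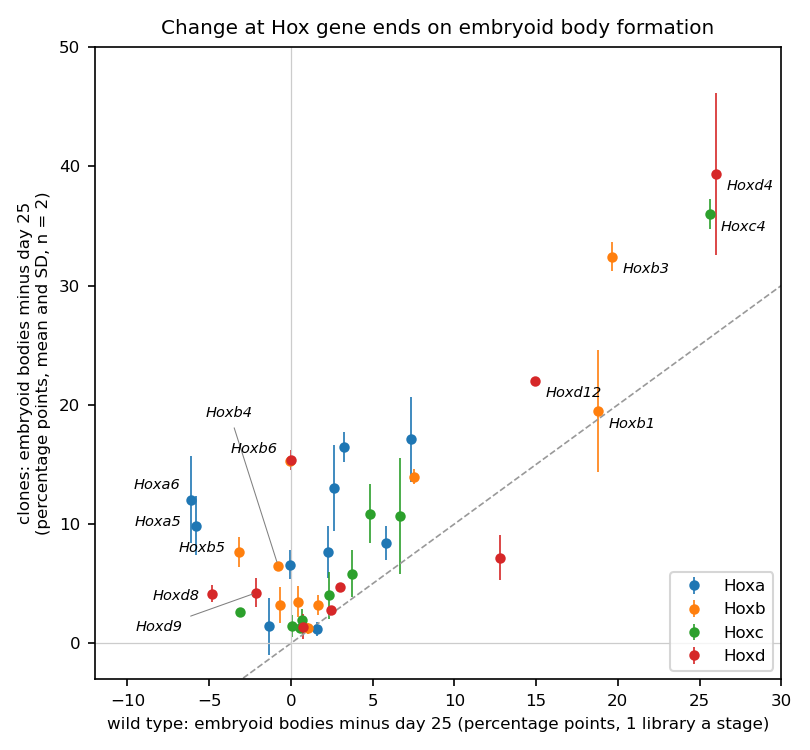
Change in methylation level (percentage points) from day 25 to embryoid bodies at the 38 Hox ends, in the clones (vertical axis, mean and SD, n = 2) against the wild type (horizontal axis, 1 library a stage), coloured by cluster, with equal change on the dashed line. The 7 members whose change differed between genotypes lie left of 0 on the horizontal axis, and Hoxd4, Hoxc4 and Hoxb3 rose in both.

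In embryoid bodies themselves none of the 38 ends was called different between clones and wild type, while 0.0689% of all ends were. At an unadjusted p under 0.05 there were 3, Hoxa6 (10.7 points, adjusted p = 0.164), Hoxa5 (8.79, adjusted p = 0.18) and Hoxd4 (-22.0, adjusted p = 0.265), and limma called 0. Both clones were above the wild type at 22 members and below it at 6. By the mean of the clones, 27 members lay above the wild type and 11 below. Most ends had the same direction, with 13884 of all 20326 ends above the wild type by that mean and 6439 below. Whether the members' share differs from that of all ends was not tested.

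Other genes that act with or on Hox genes are given for comparison, by counts that passed in the clones and by median changes, which over all ends were -3.90 points to day 25 and 7.22 points on to embryoid bodies. Over all ends 40.2% fell by day 25 and 74.6% rose in embryoid bodies. Of 9 TALE-class cofactors (Pbx, Meis and Pknox genes, which bind DNA with Hox proteins) 2 fell by day 25 and 4 rose in embryoid bodies (medians -1.23 and 1.61 points). Of 8 ParaHox and Evx genes, the nearest relatives of Hox genes, 2 fell and 8 rose (-2.94 and 7.30). Of 22 Polycomb and Trithorax genes, which keep Hox genes off or on, 7 fell and 14 rose (-0.85 and 2.28).

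Of 15 genes of retinoic acid, Wnt and Fgf inputs 5 fell and 14 rose (-2.90 and 5.76). Among them was Cyp26b1, which degrades retinoic acid (-24.0 points, adjusted p = 0.0019, then 31.2, adjusted p = 9.84e-06). Of 26 genes next to or inside the clusters 6 fell and 23 rose (-1.82 and 5.14). These include Halr1, a non-coding RNA gene beside Hoxa (-20.3 points, adjusted p = 0.00435, then 35.1, adjusted p = 5.12e-06), and the microRNA gene Mir10b in Hoxd (-12.2, adjusted p = 0.0421, then 31.6, adjusted p = 1.56e-05). None of these 5 lists had a member that differed between clones and wild type in embryoid bodies by edgeR's test. Among ends of 20 fibroblast marker genes, which feeder cells express, 3 fell by day 25 and 16 rose in embryoid bodies (-1.63 and 16.4), and among 10 pluripotency genes 6 fell and 8 rose (-8.34 and 7.97). The pluripotency genes were the one list here with a larger share of falls than all ends. The TALE-class and the Polycomb and Trithorax lists had a smaller share of rises than all ends, and these differences in share were not tested. Nothing here measures expression of these genes.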

How the data were processed

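Per the labels' protocols, genomic DNA was sheared, oxidised so that only 5-methylcytosine is read as methylated, bisulfite-converted and sequenced, 24 lane-level samples for 12 libraries. The authors deposited 1 table of whole-number counts per CpG, methylated and total, with no normalization, per the file headers. The program that called methylation was not given in the sources used here, whereas BWA, Picard 1.91 and build mm10 are named in the submitters' processing notes. The wild type has a pair of value columns a stage, summed as 1 library because the sample titles share index and flow cell. Their chi-square per window averaged 2.40 to 2.43, beyond binomial noise, against 2.47 to 3.23 between N5 and N9. Whether they are lanes or separate libraries is thus unsettled, and an alternative chosen after seeing the data kept them apart. No value column was left unused (0).

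Calls were summed per gene end (RefSeq genes of GRCm38.p6, chromosomes 1 to 19 and X, without the first 3000000 bp, 21519 of the 21529 measured genes being protein-coding). Ends needed 5 or more CpGs and, in every library, 10 or more calls. The 20326 that passed were tested with edgeR 4.0.16 (R 4.3.3), the quasi-likelihood F test on methylated and unmethylated counts over 8 groups of genotype and stage. The fit had 4 residual degrees of freedom and a common dispersion of 0.024, and the spread of a lone wild-type library is taken to be that of the clones. The Benjamini-Hochberg adjustment ran over all ends within each of 10 comparisons, with a threshold of 0.05. Changes are differences of the level in percentage points. Scripts were tested on simulated data, with 50 ends per size of change in the clones at day 25 against t=0. For a change of -2 and 2 in log2 odds of methylation, 62 and 80% of ends were called. For -1 and for 1 it was 4% each. An end that was not called is thus not shown to be unchanged. The members and gene lists were chosen with earlier results of these data known. Named with full values are members called in a comparison (the 10 largest changes where more were called) and the highest of each cluster in the wild type at t=0. The lowest of each cluster there are given by their range over the 12 libraries. Values of Hoxd12, Hoxd13, Hoxa5, Hoxa7 and Hoxd4 promoters, of the other ends of members, of uncalled members near the threshold and of neighbouring genes were chosen after they were seen. RefSeq promoters matched 22 of the 38 members, and strands of the others were taken from their cluster. Some items of the annotation are not reported here.

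Clones N5 and N9 are the same lines at every stage, so the clone line pairs libraries. Their deviations correlated by 0.000752 to 0.0335 between stages over all ends. Alternatives were 30 calls, windows of 500 and 2000 bp, both gene ends, the clone line as a block with and without flow cell, limma 3.58.1 on logit levels (pseudocount 0.5), autosomes only, and each clone library left out.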

Additional observations from a re-analysis of the deposited data

Results flagged for a closer look

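At 8 Hox genes the clones' change between stages differed from that of the wild type by the test of the difference itself. From t=0 to day 25 the clones changed more downward, with differences of -9.67 points at Hoxb5 and -7.90 points at Hoxc9. From day 25 to embryoid bodies they changed more upward, by 18.2 points at Hoxa6, 15.7 at Hoxa5, 15.4 at Hoxb6, 10.9 at Hoxb5, 9.00 at Hoxd8, 7.28 at Hoxb4 and 6.36 at Hoxd9. Hoxa5 and Hoxa6 share most of their window. The wild type is 1 library a stage, and its embryoid bodies carry another differentiation time in their label.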

How the results depend on the processing

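No member called in a comparison changed sign there under the 17 alternatives run, and the direction of uncalled members was not followed. The rise from day 25 to embryoid bodies was called at 29 to 37 members. Day 10 against t=0 and clones against wild type at day 10 and in embryoid bodies had 0 called members under each alternative. With windows of 500 bp, 6 members were lower at day 25 than at t=0 (14 in the report), Hoxa10 and Hoxd1 among them newly called. There were 5 higher in embryoid bodies than at t=0 (12). Lower than the wild type at day 25 were 5 (8), of which Hoxd1 was newly called. The differences of change had 1 to day 25 (2) and 2 on to embryoid bodies (7), of which Hoxa2 was newly called. Windows of 2000 bp gave 19 members higher in embryoid bodies than at t=0. With limma on logit levels the counts were 0 for that comparison, 1 for clones against wild type at day 25, and 0 and 0 for the differences of change. Leaving out each clone library gave 3 to 14 members for day 25 against t=0, 0 to 13 for embryoid bodies against t=0, 4 to 9 for clones against wild type at day 25, 0 to 1 at t=0, 0 to 2 for the difference to day 25 and 3 to 8 for that on to embryoid bodies. The replicate block (the clone line) gave 1 member at t=0, Hoxd4, and changed no other count by more than 1.5 times. With flow cell added to the block, 3 members were called at day 25 against the wild type, among them Hoxd11, newly called. Wild-type columns taken as separate libraries also gave 1 member at t=0, Hoxd4. The causes were not tested. Depth limits single CpGs, with few calls in a library, more than gene ends, and the precision of wild-type comparisons is limited by 1 library a stage.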
